A study of Mus musculus with 155 samples.

Results

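A set of 10 trophoblast genes was followed through the RNA-seq count tables of embryonic stem cells (ESCs), retinoic acid (RA)-treated cells and oligodendrocyte precursor cells (OPCs). They were Gata2, Gata3, Cdx2, Eomes, Elf5, Tfap2c, Tfap2a, Hand1, Krt7 and Esx1, 10 of the 55471 genes of the tables, and all of them were found by matching Ensembl identifiers to mouse symbols. The set was put together because Gata2 was higher in H3.3K27L ESCs than in WT-H3.3 ESCs, so the members were chosen by the counts of that contrast, which is described here with no test. All lines were KH2 mouse ESCs carrying 1 doxycycline (Dox)-inducible extra copy of SNAP-HA-tagged H3.3, which was WT-H3.3 in one line and the mutants H3.3K27M and H3.3K27L in the others, beside their own H3.3 genes. In the ESC state, the lines were each sequenced, as were WT-H3.3 ESCs given GSK343 (a PRC2 methyltransferase inhibitor), at 4, 8, 24 and 72 h of Dox with 2 libraries per time. By the study's methods, ESCs were grown with LIF and 2i (inhibitors of MEK and GSK3). RA-treated cells, labelled neural progenitors and grown without LIF and 2i, had 1 library per line at 24 h and 1 at 72 h. OPCs were derived from WT-H3.3 and H3.3K27M ESCs and had 1 library per line at each of those times; the 72 h count columns carry another replicate number than the sample titles and were matched by line and time. Each line came from hygromycin-selected cells. By the study's methods, replicates were biological and made weeks apart. Whether several clones of each kind were used is not given in the sources used here. The p-values are therefore not taken to cover the spread between independently made lines.

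The placenta arises from the trophectoderm, the first epithelium that the mouse embryo sets aside. ESCs in culture rarely enter this lineage. Cdx2, Eomes, Elf5, Gata3 and Tfap2c form the transcription factor circuit of trophoblast stem cells. Gata2 and Hand1 act in differentiated trophoblast, including giant cells, and Krt7 and Esx1 mark epithelial and labyrinth trophoblast. Several of the genes also work elsewhere: Gata2 in blood progenitors and in some neurons, Tfap2a in neural crest and surface ectoderm, Eomes and Hand1 in mesoderm and endoderm.

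In the mm9 build used by the study, Gata2 spans chr6:88143885-88157024 on the plus strand and Gata3 spans chr2:9778705-9811661 on the minus strand. Cdx2, the caudal-type homeobox factor of the trophectoderm, lies at chr5:148112381-148118846, and Eomes, a T-box factor, at chr9:118387330-118395250. Elf5, an ETS factor active in trophoblast stem cells, lies at chr2:103251845-103291146. The AP-2 factors Tfap2c and Tfap2a lie at chr2:172375093-172384122 and chr13:40811044-40829192. Hand1, a basic helix-loop-helix factor, lies at chr11:57642207-57646320, Krt7, a simple-epithelial keratin, at chr15:101241474-101260744, and Esx1, a placental homeobox factor, at chrX:133649936-133656622. The Gata3 and Tfap2a spans overlap other annotated genes, and whether the counting used strand is not given in the sources used here.

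The promoters of Gata2, Gata3 and Krt7 are shown because these genes rose together in RA-treated WT-H3.3 cells. Capitals mark each CG dinucleotide, searched as CG, which reads the same on both strands. The sequences are the 250 bases upstream of a RefSeq start in GRCm38.p6, a build other than mm9, and Gata2 has a pair of starts. Of the members, 8 matched the RefSeq promoter table, with 11 promoters; Tfap2c and Hand1 did not.
Gata2 start 1, chr6:88193641-88193890, plus strand: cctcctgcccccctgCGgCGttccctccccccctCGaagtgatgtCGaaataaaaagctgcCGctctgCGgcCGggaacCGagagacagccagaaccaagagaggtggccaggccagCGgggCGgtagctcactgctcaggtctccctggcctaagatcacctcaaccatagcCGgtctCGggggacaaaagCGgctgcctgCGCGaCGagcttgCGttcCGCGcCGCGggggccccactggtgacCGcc
Gata2 start 2, chr6:88198414-88198663, plus strand: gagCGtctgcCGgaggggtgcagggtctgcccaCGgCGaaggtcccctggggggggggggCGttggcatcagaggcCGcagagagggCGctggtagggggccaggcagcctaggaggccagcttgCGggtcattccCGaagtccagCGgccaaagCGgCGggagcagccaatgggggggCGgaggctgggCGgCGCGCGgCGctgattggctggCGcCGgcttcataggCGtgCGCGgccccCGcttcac
Gata3, chr2:9878601-9878850, minus strand: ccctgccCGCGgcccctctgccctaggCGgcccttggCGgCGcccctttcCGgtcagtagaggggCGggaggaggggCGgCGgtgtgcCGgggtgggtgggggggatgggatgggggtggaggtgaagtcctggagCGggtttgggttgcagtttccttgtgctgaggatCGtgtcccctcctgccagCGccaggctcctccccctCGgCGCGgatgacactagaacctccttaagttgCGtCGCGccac
Krt7, chr15:101412153-101412402, plus strand: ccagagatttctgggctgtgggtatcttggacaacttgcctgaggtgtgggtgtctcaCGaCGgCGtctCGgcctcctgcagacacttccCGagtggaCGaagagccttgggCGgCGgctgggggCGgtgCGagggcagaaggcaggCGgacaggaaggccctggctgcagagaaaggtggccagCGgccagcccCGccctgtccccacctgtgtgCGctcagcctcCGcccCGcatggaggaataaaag
The Gata2 promoters held 22 and 24 CG dinucleotides, against a median of 6 over the 32851 promoters of the table, of which 14.8% and 12% held at least as many. Gata3 held 19, a number that 19.7% of promoters reached, and Krt7 held 16, reached by 25.4%. For Elf5, which was near 0 in every cell state, the promoters held 2 and 8, reached by 81.2% and 43%. Of the other members matched, Esx1 held 24, Cdx2 13, Tfap2a 10 at each of its starts and Eomes 8. A link between CG number and level was not tested.

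Depth was 8245552 to 16083610 counts in WT-H3.3 ESCs, 6590661 to 11949871 in H3.3K27M ESCs, 1247934 to 8724336 with GSK343, 2239137 to 22269533 in RA-treated cells and 7499258 to 12387113 in OPCs. H3.3K27L ESC libraries held up to 21161392 counts, but the second one at 72 h held 68378, so that 1 count in it equals 14.6 CPM. In that library the members' levels rest on a few counts each, and leaving it out changed no count of called members. Here CPM are counts scaled to a library total of 1000000, and levels are compared only within a gene. Some libraries also stood apart within a group: replicate 2 of H3.3K27M and replicate 1 of H3.3K27L at 4, 8 and 24 h, as the Tfap2c and Eomes values below show. The H3.3K27L line had at most 4.28 CPM of the Y-linked gene Eif2s3y against 43.9 to 83.3 CPM in the other ESC groups.

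In ESCs, Gata2 was counted at a few CPM. Over the 8 libraries of each group, its lowest, median and highest CPM were 1.26, 2.21 and 4.02 in WT-H3.3, 5.52, 7.82 and 14.6 in H3.3K27L, 2.02, 2.69 and 11.8 in H3.3K27M, and 1.01, 2.62 and 3.57 with GSK343. No H3.3K27L value fell inside the WT-H3.3 range; the highest of them is the 1 count of the shallow library, and without it the range ended at 13.5 CPM. By Dox time, H3.3K27L ESCs had 5.52 and 6.47 CPM at 4 h, 8.27 and 8.997 at 8 h, 7.37 and 6.68 at 24 h, and 13.5 and 14.6 at 72 h. WT-H3.3 ESCs had 2.96 and 4.02 CPM at 4 h, 2.36 and 2.92 at 8 h, 1.26 and 2.06 at 24 h, and 1.81 and 1.79 at 72 h. Levels were already apart at the shortest time, and the WT-H3.3 values at 24 and 72 h were below those at 4 and 8 h.

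**Figure D1:**
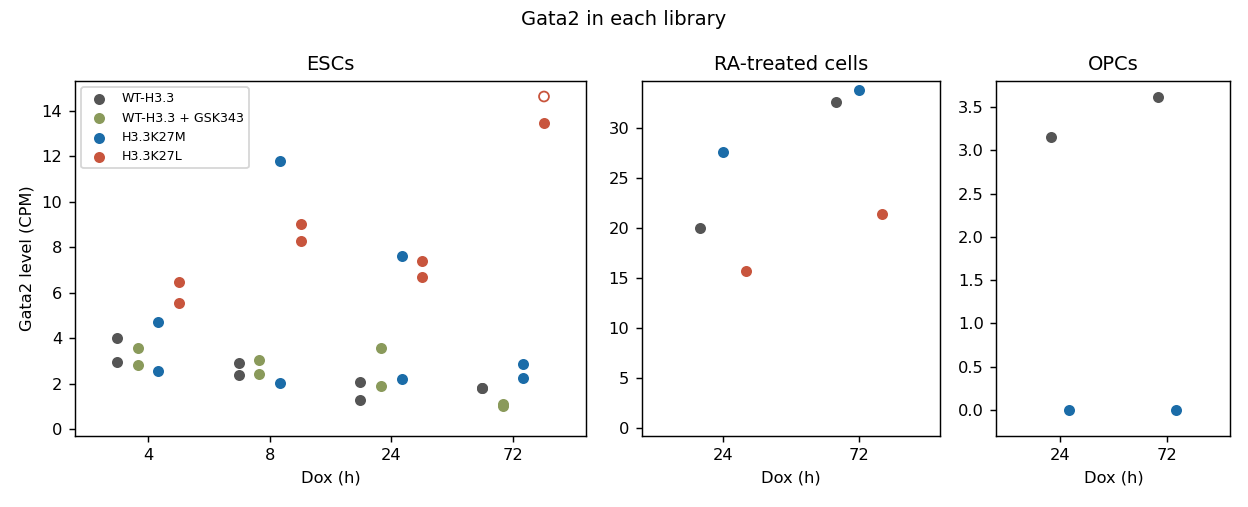
Gata2 level in CPM (vertical axes, a different scale per cell state) against hours of Dox; each point is 1 library, coloured by line or treatment, and the open point is the shallow library with 1 count. H3.3K27L ESCs sit between 5.52 and 14.6 CPM, RA-treated cells between 15.7 and 33.8 CPM, and both H3.3K27M OPC libraries have 0 counts.

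The fitted Gata2 difference between H3.3K27L and WT-H3.3 ESCs was 1.87 on the log2 scale (SE 0.28, n = 8 each), and 1.88 with the low-depth library left out. As a description, of the 8 members that passed the filter on low counts in ESCs, 3 were past the thresholds used for a call throughout (Benjamini-Hochberg adjusted p under 0.05 over all genes tested and a fold above 2 or below 0.5), namely Gata2 upwards and Gata3 and Esx1 downwards, beside 3.46% of all genes tested (0.625% higher and 2.83% lower); since this contrast chose the set, nothing is read from the count. Gata3, a GATA factor of early trophectoderm, had 1.11, 1.71 and 2.59 CPM (lowest, median, highest) in WT-H3.3 and 0, 0.556 and 1.18 in H3.3K27L ESCs, a log2 difference of -1.55 (SE 0.36; -1.54 without the shallow library). Esx1 had 2.74, 4.50 and 5.77 CPM in WT-H3.3 and 0.631, 1.98 and 14.6 in H3.3K27L, a log2 difference of -1.12 (SE 0.30; -1.14 without it). Its highest value is again 1 count of the shallow library, and the groups overlapped. Without replicate 1 of H3.3K27L at 4, 8 and 24 h the Esx1 difference was -0.76. The GATA factors Gata2 and Gata3 lay on opposite sides of WT-H3.3 in these cells. Elf5 and Hand1 did not pass the filter: Elf5 had 19 counts over all 42 libraries and Hand1 reached at most 0.346 CPM in any ESC library.

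Whether the H3.3K27L difference grew with Dox time was asked by comparing it at 24 and 72 h with 4 and 8 h, a contrast of the same H3.3K27L and WT-H3.3 libraries that chose Gata2, and so not independent of the choice. For Gata2 the later difference was larger by 1.25 on the log2 scale (SE 0.57; 1.27 without the shallow library). By edgeR none of the 8 members tested passed, as none of the 14076 genes did (0%), while 183 genes had an unadjusted p under 0.05 and DESeq2 called 0 members. The same change of difference was 0.34 (SE 0.57) for H3.3K27M and -0.00 (SE 0.43) for GSK343, and no gene passed in either (0% each; 82 and 107 genes had an unadjusted p under 0.05, and DESeq2 called 0 members). Within WT-H3.3 ESCs, Gata2 at 24 and 72 h differed from 4 and 8 h by -0.86 (SE 0.41, edgeR adjusted p = 0.583, n = 4 each). By edgeR or by DESeq2, 0 of 8 members were called, beside 0.0710% of all genes by edgeR. An unadjusted p under 0.05 was found for 1 of 8 members and for 1180 of all 14076 genes tested. In the unmutated line the Gata2 values at the later times were the lower ones, and the difference did not pass the test.

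H3.3K27M ESCs gave no call among the members. Gata2 differed from WT-H3.3 by 0.87 on the log2 scale (SE 0.29, edgeR adjusted p = 0.233, n = 8 each). By edgeR or DESeq2, 0 of 8 members were called, beside 0.0142% of all genes by edgeR. An unadjusted p under 0.05 was found for 5 of the 8 members and for 1612 of all 14076 genes tested. The libraries of this line were split. Replicate 2 had 4.70, 11.8 and 7.62 CPM of Gata2 at 4, 8 and 24 h, against 2.54, 2.02 and 2.19 in replicate 1, and at 72 h the values were 2.24 and 2.84. Those 3 libraries also had the most Tfap2c, the AP-2 factor of trophoblast stem and germ cells, at 60.2, 78.2 and 76.0 CPM against 32.5, 32.6 and 37.8 in replicate 1. In them Eomes stood at 9.56, 12.6 and 11.3 CPM against 35.0, 37.3 and 23.2, and Tfap2a at 8.95, 6.53 and 5.47 against 15.999, 13.8 and 15.2. Without these 3 libraries the Gata2 difference was 0.02, so it rests on them. Conversely, leaving out replicate 1 at 8 h made Gata2, Cdx2 and Tfap2c pass, and leaving out replicate 1 at 4 h made Cdx2 pass. Cdx2 had 1.52, 1.86 and 3.42 CPM in WT-H3.3 and 0, 0.724 and 2.07 in H3.3K27M ESCs, values at which a library holds few counts. Replicate numbers paired H3.3K27M libraries with WT-H3.3 ones, and with the replicate as a block the Gata2 difference was 0.81, still without a call, while the number of genes called rose from 2 to 24.

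PRC2 inhibition of WT-H3.3 ESCs by GSK343 left no called member either. The Gata2 difference was -0.03 (SE 0.31, edgeR adjusted p = 1.00, n = 8 each), and 0 of 8 members were called by edgeR or DESeq2 and 0 of 8 had an unadjusted p under 0.05. No gene was called (0%), and 621 genes had an unadjusted p under 0.05. Esx1 stood at 2.701, 6.71 and 10.3 CPM with GSK343, and Gata3 at 0.801, 1.49 and 2.48, both overlapping WT-H3.3. The 3 ESC comparisons share the WT-H3.3 libraries.

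Among H3.3K27L libraries, Tfap2c was also split by replicate: 12.5, 13.9 and 16.3 CPM in replicate 1 at 4, 8 and 24 h, and 38.6, 39.9 and 45.4 in replicate 2, against 22.0 to 37.6 CPM in WT-H3.3. Without replicate 1 at these times the Gata2 levels of the line ranged from 6.47 to 14.6 CPM, the highest being the 1 count of the shallow library. As these libraries chose Gata2, this range is a description and nothing is read from it. Eomes had 15.7, 35.1 and 41.9 CPM in WT-H3.3, and 28.0, 38.9 and 59.5 in H3.3K27L. Krt7 had group medians of at most 0.235 CPM in ESCs.

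**Figure D2:**
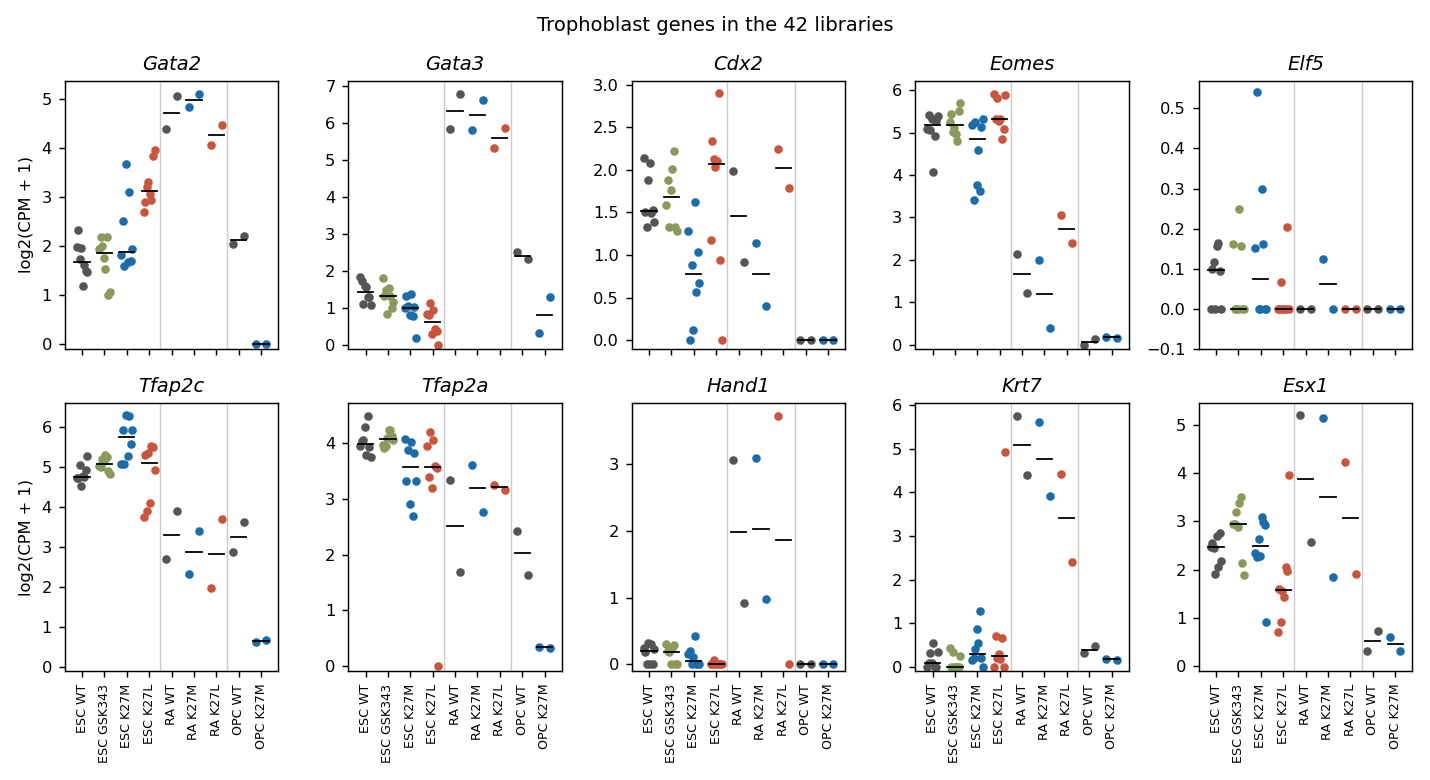
Level of each of the 10 members as log2(CPM + 1) in every library, by cell state and line; each point is 1 library, lines are medians, and scales differ between genes. Gata3, Krt7 and Hand1 are highest in RA-treated cells, Eomes, Tfap2c and Tfap2a in ESCs, and Elf5 is near 0 throughout.

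Larger changes accompanied RA treatment. In the WT-H3.3 line, 5 of the 9 members tested were higher and 3 lower in RA-treated cells than in ESCs, against 23.1% and 19.5% of all genes, 42.7% in either direction (2 against 8 libraries). Gata2 had 20.0 and 32.6 CPM at 24 and 72 h, both above the ESC maximum of 4.02, and rose by 3.25 on the log2 scale (SE 0.42, edgeR adjusted p = 3.9e-08). Gata3 had 56.0 and 109 CPM against at most 2.59 in ESCs and rose by 5.36 (SE 0.33, adjusted p = 7.57e-17). Krt7 went from at most 0.459 CPM to 52.9 and 20.1, a rise of 7.86 (SE 0.68, adjusted p = 1.37e-12). Hand1 reached 7.33 CPM at 24 h and 0.893 at 72 h, against at most 0.249 in ESCs, a rise of 4.85 (SE 0.77, adjusted p = 1.72e-06); with 72 h libraries alone Hand1 did not pass the filter on low counts. It passed here through RA-treated libraries and not in the fits of ESCs alone, so its direction was partly set by the filter in every line. Krt7 passed in the fits of ESCs alone, but on few counts (12 over the 8 WT-H3.3 libraries). Its direction may therefore be partly set by the filter too. Esx1 was at 35.6 and 4.91 CPM, so that only its 24 h library lay above the ESC range, and its rise of 2.11 (SE 0.54, adjusted p = 0.00132) became 0.01 with the 72 h library alone.

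Of the trophoblast stem cell circuit, Eomes and Tfap2c went the other way, as did Tfap2a, while Gata3 rose. Eomes had 3.37 and 1.34 CPM in RA-treated WT-H3.3 cells and fell by 3.87 on the log2 scale (SE 0.60, edgeR adjusted p = 1.12e-06). Tfap2c, at 5.54 and 13.8 CPM, fell by 1.78 (SE 0.49, adjusted p = 0.0025; -1.19 and no call with the 72 h library alone), and Tfap2a, at 9.11 and 2.23 CPM, fell by 1.52 (SE 0.40, adjusted p = 0.00162). Every RA value of these 3 genes lay below every WT-H3.3 ESC value, but the share of all genes separated in this way was not computed. Cdx2 had 2.97 and 0.893 CPM and was not called, and Elf5 did not pass the filter. In bulk libraries, fewer cells of a type and less RNA per cell cannot be told apart, and cell state was confounded with the table, the differentiation run and perhaps the library kit. RA was also given together with the removal of LIF and 2i, and their parts cannot be told apart.

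In the H3.3K27M line, 5 members were called higher and 2 lower (25.1% and 19.0% of all genes, 44.0% in either direction), and in the H3.3K27L line 4 higher and 2 lower (23.4% and 19.0%, 42.3% in either direction). Gata2 rose by 2.58 in H3.3K27M (SE 0.41, edgeR adjusted p = 1.6e-06), with 27.6 and 33.8 CPM in its RA libraries. In H3.3K27L, whose ESC level was the one that chose the gene, RA-treated cells had 15.7 and 21.4 CPM, both above the line's ESC range, and the difference of 1.02 (SE 0.45, adjusted p = 0.0557; 1.04 without the shallow library) did not pass; it was 1.34 and passed by DESeq2, as it also did in edgeR with size factors of DESeq2 (1.34), with no filter on low counts (1.17) and with only the compared libraries (1.11). Because those ESC libraries chose Gata2, this H3.3K27L difference and its calls are a description, and nothing is read from them. Whether the change with RA differed between lines was not tested. Gata3 rose by 6.09 in H3.3K27M (SE 0.35, adjusted p = 7.14e-18) and by 5.94 in H3.3K27L (SE 0.37, adjusted p = 1.39e-16). Krt7 rose by 5.92 (SE 0.62, adjusted p = 1.46e-10) and 5.24 (SE 0.71, adjusted p = 6.38e-08) in these lines. Hand1 rose by 5.39 in H3.3K27M (SE 0.76, adjusted p = 2.07e-07). In H3.3K27L, Hand1 had 91 counts in the RA-treated libraries, all at 24 h, and 1 in the ESC libraries, a ratio of 602 (95% counting interval 105 to 24042, which covers counting error only). Esx1 rose by 1.88 (SE 0.53, adjusted p = 0.00295) and 2.31 (SE 0.59, adjusted p = 0.00117), again from 24 h libraries of 34.4 and 17.7 CPM beside 2.58 and 2.75 at 72 h. With 72 h libraries alone the Esx1 values were -1.07 and 0.42, and neither passed. Eomes fell by 3.66 (SE 0.56, adjusted p = 7.03e-07) and 2.97 (SE 0.53, adjusted p = 1.08e-05), and Tfap2c by 3.25 (SE 0.52, adjusted p = 1.74e-06) and 2.26 (SE 0.50, adjusted p = 0.000254). Tfap2a differed by -0.45 (SE 0.35, edgeR adjusted p = 0.291) and -0.74 (SE 0.37, adjusted p = 0.0943) and was called in neither line.

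**Figure D3:**
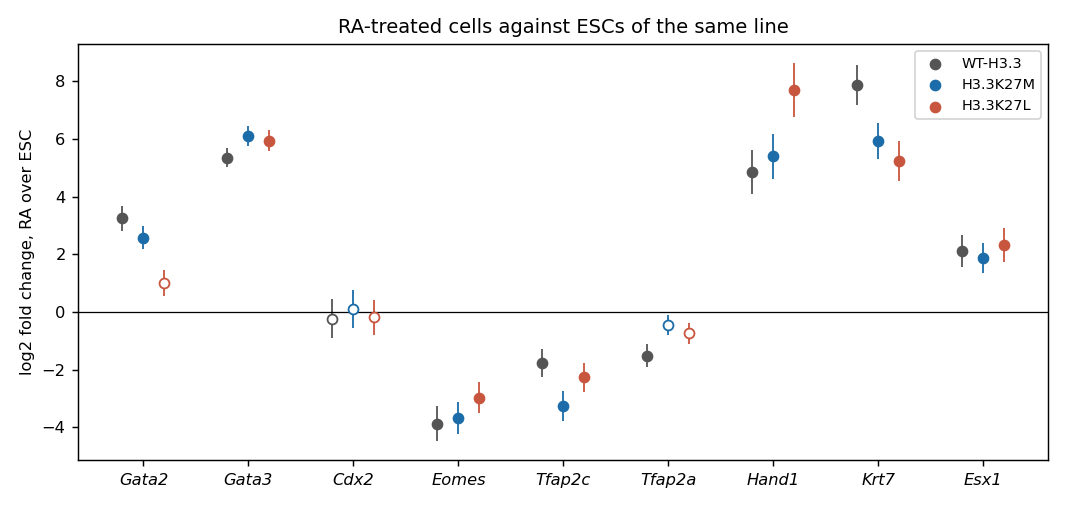
Log2 difference between RA-treated cells and ESCs for each member tested, by line; points are fitted values, filled where called and open where not, and bars are 1 SE. Gata3 (5.36 to 6.09) and Krt7 (5.24 to 7.86) lie far above 0 and Eomes (-3.87 to -2.97) below it in all 3 lines.

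Markers of other cell types moved with this change, not all of them upwards. The summed level of 5 primitive endoderm markers (Sox17, Sox7, Foxa2, Dab2 and Lama1) was 33.6 to 141 CPM in ESC libraries and 3149 and 632 CPM at 24 and 72 h in RA-treated WT-H3.3 cells, 852 and 558 in H3.3K27M and 6082 and 1710 in H3.3K27L. Fibroblast markers, at 2.11 to 10.8 CPM in WT-H3.3 ESCs, were at 268 and 146 CPM in RA-treated WT-H3.3 cells (4 of 6 called higher), and neural border and crest markers went from 19.5 to 31.5 CPM to 110 and 159 (4 of 5 tested higher, 1 lower). Over all RA-treated libraries, OPC markers were at 62.5 to 337 CPM against 14.6 to 55.7 in ESCs. The sum of the blood and endothelium markers was lower, at 16.1 to 32.9 CPM against 38.6 to 121. By gene, 2 of 6 tested were called higher and 1 lower in WT-H3.3 and likewise in H3.3K27M. In H3.3K27L, 1 was called higher and 1 lower. Surface epithelium markers, at 50.0 to 103 CPM against 67.1 to 152, overlapped the ESC range. So did GABAergic or V2b neuron markers, at 5.51 to 13.3 CPM against 0 to 8.62. Pluripotency markers fell from 2121 to 3885 CPM in ESCs to between 78.6 and 240.5. Of the label's own cell type, 4 of 4 neural progenitor markers tested were higher than in ESCs in WT-H3.3 and H3.3K27M and 2 of 4 in H3.3K27L. The 5 of these markers in the tables summed to 25.8 to 93.5 CPM in ESCs, to 282, 437 and 152 CPM at 24 h of RA in WT-H3.3, H3.3K27M and then H3.3K27L, and to 88.9, 103 and 44.4 at 72 h, so that the 72 h sums of WT-H3.3 and H3.3K27L lay inside the ESC range. In OPCs the sums were 2900 to 3974 CPM. The part of these markers in the rise of the GATA factors, Krt7 and Hand1 was not tested.

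Some members differed between the RA time points, as many genes did, and nothing is read from their number. Between 72 and 24 h (3 libraries each), 5 of 9 members were called, 2 higher and 3 lower, beside 20.0% and 22.9% of all genes, 42.9% in either direction. Dox time and time in RA cannot be told apart here. Gata3 was higher at 72 h by 1.02 on the log2 scale (SE 0.14, edgeR adjusted p = 3.93e-05), with 109, 97.3 and 56.6 CPM against 56.0, 54.4 and 38.9. It stood barely past the fold limit, and with no filter on low counts its 0.91 missed it. Tfap2c was higher by 1.74 (SE 0.29, edgeR adjusted p = 0.000147), at 9.66 to 13.8 CPM against 2.95 to 5.54. Hand1 was lower by 3.68 (SE 0.58, adjusted p = 0.000114), at 0 to 0.966 CPM against 7.33 to 12.2. Krt7 fell by 1.49 (SE 0.20, adjusted p = 2.81e-05), and Esx1 fell by 2.87 (SE 0.27, adjusted p = 1.29e-06), with 2.58 to 4.91 CPM at 72 h against 17.7 to 35.6. Gata2 changed by 0.70 (SE 0.17, adjusted p = 0.00317), past the p threshold and under the fold limit, and was higher at 72 h in all 3 lines.

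In RA-treated H3.3K27L cells, 1 member was lower than in WT-H3.3 cells. Krt7 had 20.4 and 4.28 CPM at 24 and 72 h in H3.3K27L against 52.9 and 20.1 in WT-H3.3 and 47.7 and 14.2 in H3.3K27M, a difference from WT-H3.3 of -1.60 (SE 0.24, edgeR adjusted p = 0.00427, n = 2 each). It was the only call among 9 members tested, beside 3.68% of all genes in either direction, 1.52% higher and 2.15% lower; with the Dox times pooled, no member and no gene was called. Gata3 had 38.9 and 56.6 CPM against 56.0 and 109, and its difference of -0.72 (SE 0.18, adjusted p = 0.0305) was under the fold limit. Gata2, higher in H3.3K27L than in WT-H3.3 among ESCs, had 15.7 and 21.4 CPM against 20.0 and 32.6 in RA-treated cells, a difference of -0.46 (SE 0.22, adjusted p = 0.253). At both times the H3.3K27L library held the lowest Gata2 level of the 3 lines, but the test did not pass. Primitive endoderm markers were higher in H3.3K27L, with 4 of 5 tested called higher, and the part of this in the Krt7 result was not tested. H3.3K27M called 0 of 9 members in RA-treated cells by edgeR or DESeq2, beside 0.0163% of all genes by edgeR. An unadjusted p under 0.05 was found for 0 of 9 members and for 755 of all 12265 genes tested. Gata2 differed there by 0.25 (SE 0.21, adjusted p = 0.941).

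In OPCs the members were low, and 4 passed the filter. All 4 were lower in OPCs with H3.3K27M than with WT-H3.3, in a comparison that called 15.0% of all genes lower, 13.0% higher and 28.0% in either direction (n = 2 each). In H3.3K27M they had 0 to 12 counts per library, so they passed the filter through the WT-H3.3 libraries. Their direction was thus largely set by the filter, and the share of all genes is not a matched baseline for it. Gata2 had 39 and 38 counts (3.15 and 3.62 CPM) in WT-H3.3 and 0 counts in both H3.3K27M libraries, at least 17.7-fold lower when 3 counts over the group are taken as the floor (edgeR adjusted p = 0.000111). Gata3 had 4.68 and 4.00 CPM against 0.267 and 1.45, lower by a log2 difference of -2.27 (SE 0.52, adjusted p = 0.00391). Tfap2c had 6.38 and 11.4 CPM against 0.533 and 0.602, a difference of -3.92 (SE 0.48, adjusted p = 6.01e-05). Tfap2a, which also acts in neural crest and skin, had 4.36 and 2.10 CPM against 0.267 and 0.241, a difference of -3.61 (SE 0.64, adjusted p = 0.000823). For each of the 4 genes the groups did not overlap, which with n = 2 each carries little weight. The share of all genes without overlap was not computed. On a few counts each, Krt7 also lay below WT-H3.3 without overlap and Eomes above it. The other 6 members did not reach the filter: Cdx2 and Hand1 had 0 counts in every OPC library, Esx1 had 0.241 to 0.667 CPM, and Krt7 had 7 counts in WT-H3.3 and 2 in H3.3K27M.

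**Figure D4:**
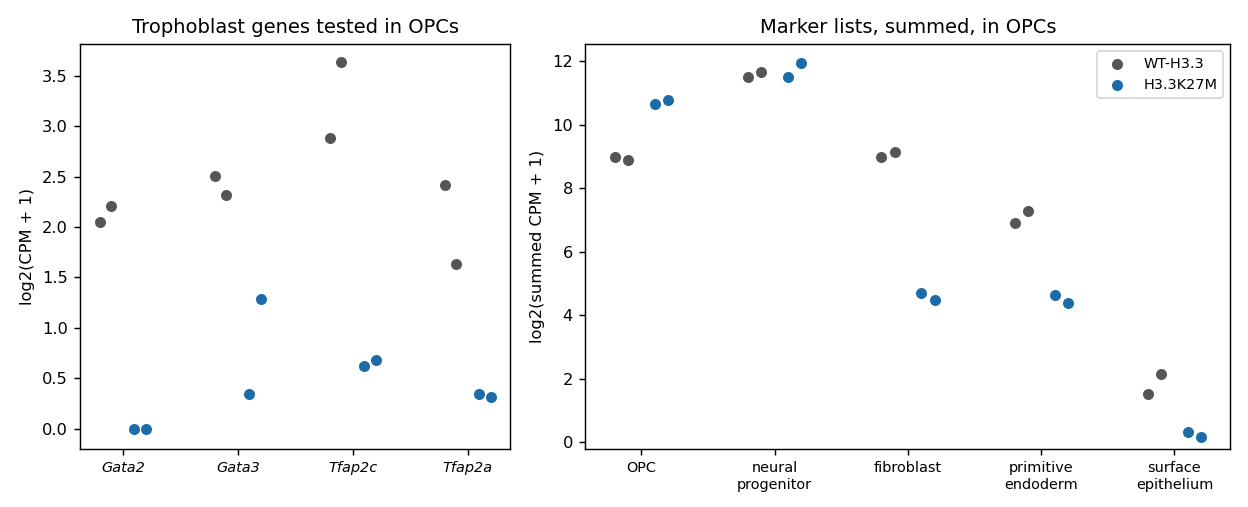
Left, levels of Gata2, Gata3, Tfap2c and Tfap2a as log2(CPM + 1), and right, summed levels of marker lists as log2(summed CPM + 1); each point is 1 OPC library, at 24 h (left of each pair) or 72 h of Dox. For the 4 genes the WT-H3.3 libraries lie between 2.10 and 11.4 CPM and the H3.3K27M libraries between 0 and 1.45 CPM, while the sum of the OPC markers is higher in H3.3K27M.

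The OPC lines also differed in markers of other cells. Summed OPC markers were 505 and 479 CPM in WT-H3.3 and 1617 and 1742 in H3.3K27M, with 4 of 6 called higher and 2 lower: Olig2, at 256 to 306 CPM, was at 924 to 927 in H3.3K27M, whereas Pdgfra went from 14.4 to 21.6 CPM down to between 0.533 and 0.723, and Sox10 from 1.78 to 3.14 down to between 0.133 and 0.482. These genes were singled out after their values were seen. Neural progenitor markers were 2900 to 3974 CPM over both. Fibroblast markers were 509 and 560 CPM in WT-H3.3 and 25.2 and 21.2 in H3.3K27M, with 5 of 6 tested called lower and 1 higher. Primitive endoderm markers were 120 and 155 CPM against 24.1 and 20.1, surface epithelium markers 1.86 and 3.43 against 0.267 and 0.12, and blood and endothelium markers 40.0 and 48.7 against 12.0 and 7.95. Of the surface epithelium list, Krt5, Krt14 and Grhl3 were at 0 in H3.3K27M OPCs and had counts in WT-H3.3 OPCs. The part of these cell types in the lower Gata2, Gata3, Tfap2c and Tfap2a levels was not tested.

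Set against ESCs of the same line, WT-H3.3 OPCs had 1 member called higher and 5 lower of 9 tested (30.3% and 36.3% of all genes, 66.6% in either direction), and H3.3K27M OPCs had 0 higher and 6 lower (27.6% and 36.8%, 64.4% in either direction). The median over all genes was itself shifted by -0.19 and -0.32 on the log2 scale in these comparisons. Cdx2, Eomes and Esx1 did not pass the filter in the fits of OPCs alone and passed here through other libraries. Their direction was thus partly set by the filter, and the shares of all genes are not a matched baseline. Gata3 was the one called higher, in WT-H3.3, by 1.36 (SE 0.38, edgeR adjusted p = 0.00151). Gata2 in WT-H3.3 OPCs differed from ESCs by 0.54 (SE 0.48, adjusted p = 0.303), whereas in H3.3K27M OPCs it was at least 25.8-fold lower than in ESCs of that line (adjusted p = 8.79e-07). Tfap2c differed by -1.59 (SE 0.45, adjusted p = 0.00179) in WT-H3.3 and by -6.44 (SE 0.68, adjusted p = 1.06e-10) in H3.3K27M, and Tfap2a by -2.19 (SE 0.40, adjusted p = 6.66e-06) and -5.30 (SE 0.60, adjusted p = 5.08e-10). Esx1 differed by -3.17 (SE 0.87, adjusted p = 0.00124) and -3.55 (SE 0.95, adjusted p = 0.00104). Cdx2 was at least 16.9-fold lower in WT-H3.3 OPCs (adjusted p = 1.34e-05) and at least 4.29-fold lower in H3.3K27M OPCs (adjusted p = 0.0028). Eomes had 1 count in WT-H3.3 OPCs, an ESC to OPC ratio of 801 (95% counting interval 144 to 31663), and 2 counts in H3.3K27M OPCs, a ratio of 195 (53.9 to 1611).

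Other genes of the trophoblast programme were followed as 4 lists. Of 17 genes for trophoblast entry and stem cells, 6 were higher and 3 lower of 16 tested in RA-treated WT-H3.3 cells against ESCs, beside 23.1% and 19.5% of all genes. Nr2f2, a nuclear receptor, went from 0.256 to 2.07 CPM in ESCs to between 186 and 440, while Fgf4, the growth factor that sustains trophoblast stem cells and is made by pluripotent cells, went from 202 to 276 CPM to between 0 and 0.447. Of 23 genes of differentiated trophoblast and placenta, 12 were tested, 10 were higher and 0 lower, with a median of 4.18 on the log2 scale against -0.03 over all genes. In the fits of ESCs alone 8 were tested, so others passed the filter through RA-treated or OPC libraries. The count and the median were thus partly set by the filter, and genes silent throughout were not tested. The simple keratins Krt18, at 5.97 to 15.2 CPM in ESCs and 813 to 1019 after RA, and Krt19 were among those higher. Placental hormone and spongiotrophoblast genes were not: Prl3d1, Prl2c2 and Tpbpa, singled out after their values were seen, had 0 counts in all ESC and RA-treated libraries. Of 6 other GATA-related genes, 3 of 4 tested were higher, including Gata6, at 0.134 to 0.705 CPM in ESCs and 125 to 139 after RA, and Gata4, both of which also act in primitive endoderm. Of the 3 other AP-2 factors, 1 of 2 tested was higher.

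The same lists, with 16, 12, 4 and 2 genes tested, gave 7 higher and 5 lower, 10 and 1, 4 and 0, and 2 and 0 in H3.3K27M, beside 25.1% and 19.0% of all genes. In H3.3K27L they gave 7 and 3, 9 and 1, 3 and 1, and 2 and 0, in that order, beside 23.4% and 19.0%. The limit set by the filter holds for these counts too. Between 72 and 24 h of RA, the differentiated list had 4 higher and 3 lower of 10 tested, beside 20.0% and 22.9% of all genes, with Krt8 at -2.15 and Krt19 at -1.93 on the log2 scale, in the direction of Krt7, and Rhox6, a placental homeobox gene, at 3.19. In RA-treated H3.3K27L against WT-H3.3 cells, Gata4 rose by 1.59 (edgeR adjusted p = 0.000618) and Gata6 by 1.02 (adjusted p = 0.00705), the opposite direction to the Gata2 and Gata3 values of -0.46 and -0.72. In that comparison the entry list had 2 higher and 1 lower of 15, beside 1.52% and 2.15% of all genes, among them Sox21 at 1.62 and the imprinted placental gene Peg10 at -1.86. None of the differentiated list was called by edgeR (0 of 10).

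In H3.3K27M against WT-H3.3 OPCs, 7 of 13 tested entry genes were lower and 1 higher (median -1.11 against 0.00 over all genes), and 7 of 9 differentiated genes were lower and 1 higher (median -3.48), beside 15.0% of all genes lower and 13.0% higher. Bmp4, at 8.19 and 10.9 CPM against 0.12 and 0.133, Klf5, at 49.8 to 53.3 CPM against 2.53 to 2.89, and Krt18 were among those lower, and Wnt7b, at 34.3 to 47.7 CPM against 186, was the higher one of the differentiated list. Gata6 and Gata4 were lower by log2 differences of -3.71 and -4.48, and Tfap2b by -3.65. In ESCs, H3.3K27M and GSK343 called no gene of any list by edgeR, and H3.3K27L called Sox21 alone, at 1.13. These lists hold genes of many tissues, and no enrichment was tested. In OPCs a list gene silent in one line was tested only through its counts in the other, so the filter partly set these directions too.

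The genes whose ESC pattern was most like that of Gata2 were sought over the 16 means of line and Dox time. They were Actr8, a chromatin remodelling subunit (Pearson r = 0.910), Men1 (0.901), 1500002O20Rik (0.897), Bhmt2 (0.893) and Hsp90ab1 (0.881), of 14075 genes. The shallow library is 1 of the pair behind the H3.3K27L mean at 72 h. Without it Actr8 stayed first, with r = 0.927, while the other 4 dropped to ranks between 206 and 825, so their likeness rests on that library.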

How the data were processed

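RNA-seq libraries were single-end, and the authors aligned reads with STAR 2.7.1 to mm9; the deposited tables hold raw counts per gene, 1 table each for ESCs, RA-treated cells and OPCs. The library kit (a 3′ kit or a full-length kit) and the strand setting of single libraries are not given in the sources used here. ChIP-seq data were not analysed here. Members and gene lists were chosen with earlier results of these data known. Genes of chromosome 8 (1435 genes, 5.777% of counts) were left out of all fits and marker sums. The study likewise left this chromosome out of every analysis, because karyotyping pointed to a possible duplication of it in all its clones. CPM use the whole library total. Fits used edgeR 4.0.16 in R 4.3.3 (TMM, filterByExpr, quasi-likelihood F test, Benjamini-Hochberg over all genes tested). ESC models had a mean for each group and Dox time, RA models line plus Dox time, and OPC models line; comparisons of cell states used all 42 libraries. Scripts were tested on simulated data. Python 3.11.15 and Matplotlib 3.10.9 were used for levels and figures. The 10 members were all named; of each list at most the 3 called genes of lowest adjusted p per comparison were named, and the 5 genes most like Gata2; a result on a list gene is not reported here. Alternatives were DESeq2 1.42.0, its size factors, no filter, chromosome 8 kept, only the compared libraries, a replicate block, pooled RA times, RA at 72 h alone and each library left out. Leaving out replicate 2 of H3.3K27M ESCs, or replicate 1 of H3.3K27L ESCs, at 4, 8 and 24 h was chosen after seeing the data. Over 8901 genes, deviations of same-numbered WT-H3.3 and H3.3K27M ESC libraries correlated at 0.619 to 0.722 at the 4 times, so the numbers pair these lines; for H3.3K27L the values were -0.692 to 0.262 and for GSK343 -0.468 to 0.588. In OPCs the replicate number of the titles coincides with Dox time, while the count columns name all 4 libraries replicate 2, and RA-treated cells have 1 library per time. No pair of libraries held the same counts (lowest chi-square per gene 1.853 over 861 pairs).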

Additional observations from a re-analysis of the deposited data

Results flagged for a closer look

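Of 40 groups of member values searched for a library far from the rest, 5 held one, where chance alone gives about 1 in 20. All rest on 1 to 3 counts: Elf5 at 0.153 CPM in H3.3K27L ESCs at 72 h (replicate 1), Hand1 at 0.346 CPM in H3.3K27M ESCs at 24 h (replicate 1) and at 0.0473 CPM in H3.3K27L ESCs at 8 h (replicate 1), and Krt7 at 29.2 CPM and Esx1 at 14.6 CPM in the shallow H3.3K27L library at 72 h (replicate 2).

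Some members stood on opposite sides of WT-H3.3 in different cell states, and these differences between states were not tested. Gata2 in H3.3K27L was higher in ESCs (log2 difference 1.87, the contrast that chose the gene) and stood at -0.46 in RA-treated cells. Gata2 in H3.3K27M was at 0.25 in RA-treated cells and at least 17.7-fold lower in OPCs. Tfap2c in H3.3K27M was at 0.92 in ESCs, -0.50 in RA-treated cells and -3.92 in OPCs, and Tfap2a was at 0.50 in RA-treated cells and -3.61 in OPCs. Of these values the OPC ones were past the thresholds, and the ESC value of Gata2 in H3.3K27L carries no test.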

How the results depend on the processing

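Apart from leaving out libraries, 112 of 115 counts of called members stayed within 1.5 times the reported one, and 349 gene values kept their direction and side of the threshold; for the exceptions below the cause was not tested. For RA-treated H3.3K27L cells against ESCs, 6 called members became 7, with Gata2, by DESeq2, with its size factors or with no filter. Those ESC libraries chose Gata2, so nothing is read from that change. The count of called members moved from 0 to 1 (Cdx2) for H3.3K27M ESCs with no filter, from 1 to 0 for RA-treated H3.3K27L cells with Dox times pooled (0 genes called), and from 8 to 5 for RA-treated WT-H3.3 cells against ESCs with 72 h alone, where Tfap2c was at -1.19, Esx1 at 0.01 and Hand1 did not pass the filter. The Gata2 difference with GSK343 turned from -0.03 to 0.0087 with the replicate block. Its late minus early value for GSK343 turned from -0.00 to 0.0175 (no filter), 0.00647 (chromosome 8 kept), 0.00347 (only the compared libraries), 0.0130 (low-depth library out), 0.0114 (3 H3.3K27M libraries out) and 0.0147 (3 H3.3K27L libraries out). Esx1 in RA-treated H3.3K27M cells against ESCs turned to -1.07 with 72 h alone.

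With each library left out in turn, members called ranged from 0 to 3 for H3.3K27M ESCs and from 0 to 3 for H3.3K27L ESCs (0 without replicate 1 at 72 h, which leaves the shallow library alone there and assumes it varies like the others). The ranges were 1 to 2 for RA-treated H3.3K27L cells, 4 to 7 for RA at 72 against 24 h, 5 to 8, 5 to 7 and 3 to 7 for RA-treated cells against ESCs of the WT-H3.3, H3.3K27M and then H3.3K27L line, 4 for OPCs, and 5 to 6 and 6 for OPCs against ESCs. Signs turned for Gata2 with GSK343 (-0.20 to 0.0594), for its late minus early value with H3.3K27M (-0.25 to 1.22) and GSK343 (-0.28 to 0.19), and for RA against ESC values of Esx1 in WT-H3.3 (-0.0519 to 2.86) and H3.3K27M (-1.13 to 2.71) and of Hand1 in H3.3K27L (-0.99 to 8.69); each of the last 3 turned without the line's 24 h RA library.

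Counts of all genes called moved most for small counts. For H3.3K27M ESCs, 2 became 9 by DESeq2, 159 with no filter, 0 with only the compared libraries, 24 with the replicate block, 1 with the low-depth library or replicate 2 at 4, 8 and 24 h out, 4 with the 3 H3.3K27L libraries out, and 0 to 133 with each library out. With no filter, 0 became 25 for GSK343 and 487 became 769 for H3.3K27L ESCs, which ranged from 120 to 664 with each library out. The late minus early counts went from 0 to 8 for H3.3K27L with no filter or without replicate 1 at 72 h, and to 1 for GSK343 with no filter. For WT-H3.3 Dox time, 10 became 64 with no filter, 0 with only the compared libraries, 18 with the replicate block, 24 and 26 with the 3 H3.3K27M or 3 H3.3K27L libraries out, and 0 to 17 with each library out. For RA-treated cells, H3.3K27L ranged from 398 to 933 with each library out, and H3.3K27M went from 2 to 17 by DESeq2, 79 with no filter, 0 with times pooled and 0 to 181 with each library out. In ESCs the replicate number pairs H3.3K27M with WT-H3.3 libraries alone; the block changed no other call of a member. Transcripts under about 1 CPM rest on a few counts, so that differences in Elf5, Hand1 and Krt7 in ESCs were not detectable at this depth.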
